A study of Mus musculus with 6 samples.

Results

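The actin gene family of the mouse has 6 members that encode conventional actin: Acta1 (skeletal muscle alpha), Actc1 (cardiac alpha), Acta2 (vascular smooth muscle alpha), Actg2 (enteric smooth muscle gamma), Actb (cytoplasmic beta) and Actg1 (cytoplasmic gamma). They were taken by name, and all array probes whose RefSeq accession belongs to them were used, which gave 10 probes among 55681 and 6 genes among 20145. Actg1 had 5 probes and each of the others had 1. RNA was from whole heart ventricle taken at 11 to 12 weeks of age from C57bl/6j males and put on single-colour Agilent arrays, with 3 arrays a group and 1 array for each sample. Both groups carried a floxed Tead1 gene and both received tamoxifen. The knockout group, called icKO, was Tead1F/F with Myh6-CreER, a Cre recombinase that tamoxifen activates and that is made in cardiomyocytes, so Tead1 is targeted in those cells and not in the other cells of the ventricle. The controls are described as Tead1 flox mice with tamoxifen. No Cre is named for them, so the effect of the deletion and that of Cre itself cannot be told apart, and the labels do not give the time from tamoxifen to collection. The labels call the 3 samples of a group biological replicates.

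Actin monomers assemble into filaments, which form the thin filaments of the sarcomere in muscle and the cytoskeleton in every cell. The adult mouse ventricle makes mainly cardiac alpha-actin in its cardiomyocytes, skeletal alpha-actin is the other sarcomeric form of the heart and is best known as a fetal gene that returns under load, and smooth muscle and cytoplasmic actins are made largely by vessel wall and other non-muscle cells. Muscle actin promoters are textbook targets of SRF, which binds the CArG box, and of TEAD factors, which bind the MCAT element. In bulk tissue, fewer cells of a type and less RNA per cell cannot be told apart.

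The sequences upstream of the members are shown because TEAD1 is the factor removed and its MCAT element can be searched for in them. RefSeq promoter windows of mouse build GRCm38.p6 matched 4 of the 6 genes: Acta1, Actc1, Acta2 and Actg1. Each line below is the 250 bases before the annotated gene start, 5′ to 3′ on the gene's strand, with MCAT and CArG matches in capitals. All 4 lie on the minus strand, at chr8:123894776-123895025 for Acta1, chr2:114052876-114053125 for Actc1, chr19:34255374-34255623 for Acta2 and chr11:120348496-120348745 for Actg1.
Acta1: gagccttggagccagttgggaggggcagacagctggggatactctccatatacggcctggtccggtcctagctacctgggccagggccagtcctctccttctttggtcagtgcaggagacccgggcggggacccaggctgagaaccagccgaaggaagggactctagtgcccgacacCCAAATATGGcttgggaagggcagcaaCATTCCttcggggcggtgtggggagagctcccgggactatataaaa
Actc1: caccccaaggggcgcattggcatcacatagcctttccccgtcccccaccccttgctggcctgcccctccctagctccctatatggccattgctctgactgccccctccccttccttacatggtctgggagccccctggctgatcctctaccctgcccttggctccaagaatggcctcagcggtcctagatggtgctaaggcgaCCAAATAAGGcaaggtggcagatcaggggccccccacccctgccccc
Acta2: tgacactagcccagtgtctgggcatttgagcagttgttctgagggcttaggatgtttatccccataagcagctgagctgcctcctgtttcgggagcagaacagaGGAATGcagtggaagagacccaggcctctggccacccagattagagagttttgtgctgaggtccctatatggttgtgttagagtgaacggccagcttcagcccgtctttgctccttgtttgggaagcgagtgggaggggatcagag
Actg1: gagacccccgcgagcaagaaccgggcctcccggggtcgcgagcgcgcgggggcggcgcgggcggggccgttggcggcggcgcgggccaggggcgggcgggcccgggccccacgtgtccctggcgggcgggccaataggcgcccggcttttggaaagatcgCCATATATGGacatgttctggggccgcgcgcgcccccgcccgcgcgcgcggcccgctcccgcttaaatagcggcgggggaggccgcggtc
The Acta1 window held an MCAT match, the letters CATTCC on either strand, from 46 to 41 bases before the annotated start, and a CArG box from 73 to 64 bases before it. The Actc1 window held a CArG box from 47 to 38 bases before its start and no MCAT letters. The Acta2 window held an MCAT match on the other strand, printed as GGAATG, from 146 to 141 bases before its start. The Actg1 window held a CArG box from 90 to 81 bases before its start. Among all 32851 promoter windows of the same length, 12.6% held an MCAT match and 1.47% a CArG box. The E-box, CANNTG, was found in the windows of Acta1, Acta2 and Actg1, and 66.2% of all windows held it. TATAAA was found in that of Acta1, and 12.4% of all windows held it. The CArG box was searched strictly, as CC and GG with only A or T between them. Stretches that differ from it by a letter were not counted, such as ccctatatgg for Acta2 and Actc1 and ccatatacgg for Acta1. No match overlapped another. A match is a match of letters, not a bound site, and these data measured no binding.

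**Figure D1:**
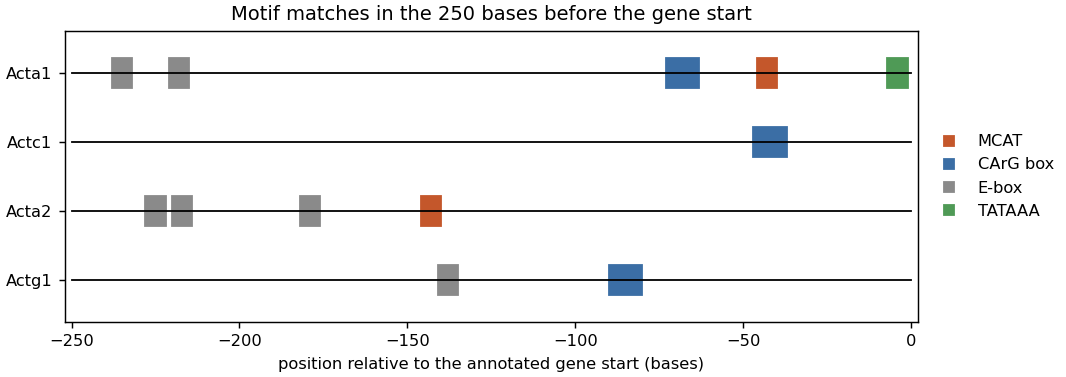
Positions of motif matches (coloured boxes) in the 250 bases before the annotated start of the 4 actin genes with a promoter window, with the position relative to that start in bases on the x axis. With the strict CArG pattern, Acta1 is the gene with an MCAT and a CArG match, and Acta2 has an MCAT match and 3 E-boxes.

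Relative to the 75th percentile of each array, both sarcomeric actins were lower in icKO ventricle, while the enteric smooth muscle actin and cytoplasmic gamma-actin were higher. The limma test, adjusted by the Benjamini-Hochberg method over all 22278 features with a threshold of 0.05, passed for 4 of the 6 genes: Acta1 and Actc1 were lower, and Actg2 and Actg1 were higher. Acta2 and Actb did not pass. Over all features 44.8% passed, 16.0% higher and 28.7% lower, so a count of 4 in 6 stands beside a large background of change. The 3 icKO values lay wholly above or wholly below the 3 control values for 5 of the 6 genes, and for 59.0% of all features. Levels below are scaled log2 signals, the log2 of the processed signal less the array's 75th percentile, so a difference of 1 is a change of 2-fold relative to the array's other spots. Probes differ in brightness, so levels are compared between arrays for a gene, not between genes.

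**Figure D2:**
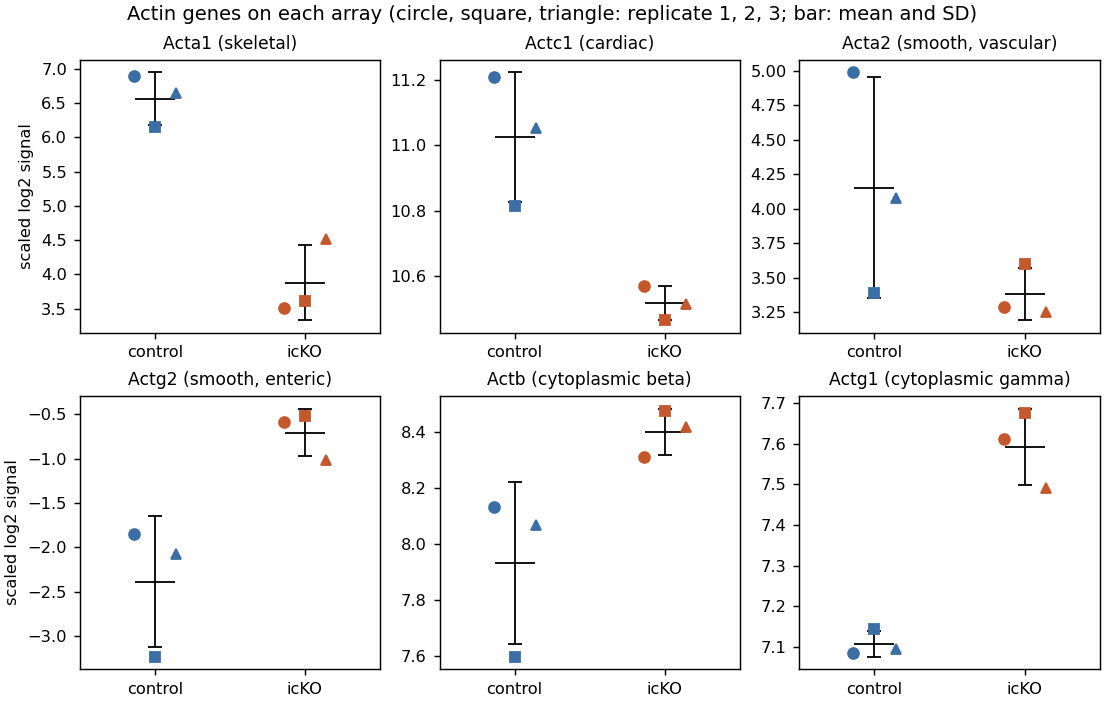
Scaled log2 signal (y axis) of each actin gene on the 3 control and the 3 icKO arrays, each panel with its own range. Points are arrays and bars the mean and SD of the group. Acta1 and Actc1 lie lower, and Actg2, Actb and Actg1 lie higher, on all 3 icKO arrays, while the Acta2 groups overlap.

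Acta1, the skeletal alpha-actin, fell the most of the family. Its scaled log2 signal was 6.90, 6.15 and 6.65 on the 3 control arrays and 3.50, 3.62 and 4.51 on the 3 icKO arrays. All icKO arrays lay below all controls, with a gap between the groups wider than the range within either. The mean fell from 6.56 ± 0.38 (SD, n = 3) to 3.88 ± 0.55 (SD, n = 3), a log2 difference of -2.69 ± 0.32 (SE, adjusted p = 0.00143), which is 6.45-fold. The 95% interval of the difference ran from -3.45 to -1.93. Only 0.534% of all features tested had a lower difference. The decrease is also seen in the unscaled signals, which were 22554, 16465 and 21588 in controls and 3540, 4259 and 6641 in icKO.

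Actc1, the cardiac alpha-actin that builds most thin filaments of the adult heart, was lower by a much smaller amount. Scaled log2 signals were 11.21, 10.82 and 11.05 in controls and 10.57, 10.47 and 10.51 in icKO. The groups did not overlap, and the icKO arrays spread less than the controls. The mean went from 11.02 ± 0.20 (SD, n = 3) to 10.52 ± 0.05 (SD, n = 3), a difference of -0.51 ± 0.12 (SE, adjusted p = 0.0178), or 1.42-fold. This call depends on the scaling. Unscaled signals overlapped, at 446918, 418900 and 456157 in controls and 474143, 491365 and 426864 in icKO, and the probe ranked 2 from the brightest on every control array and 1 on every icKO array. With quantile normalization the difference was 0.13 (adjusted p = 0.220). That method sets a value by its rank alone, so this difference only restates the ranks of 2 and 1. With spike-in scaling the difference was -0.07 (adjusted p = 0.729). With normexp background correction it was -0.33 and passed. The sign for Actc1 also turned with Gapdh scaling (0.08) and in the authors' value table (0.15), and held with others. No actin spot was saturated.

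Markers of cardiomyocytes moved with these 2 genes: 9 of 10, among them Myh6, Myl2 and Tnni3, were lower, none was higher, and Ryr2, at 0.05, did not pass. This and the later marker counts stand beside 28.7% lower and 16.0% higher over all features. The summed scaled signal of the cardiomyocyte markers was 7422 to 8831 in controls and 4462 to 5087 in icKO. Such sums, here and below, mostly follow the brightest probes and do not weigh the markers equally. Acta1's difference was larger in size than that of any of the 10, which reached at most -1.03 for Tnni3. Median scaling left 6 of the markers lower, quantile normalization 4 and spike-in scaling 2. Acta1 is also the actin of skeletal muscle fibres. Markers of these fibres were at a low summed level, mostly from Atp2a1, of 17.6 to 19.3 in controls and 7.22 to 8.24 in icKO. Of 9 such markers 5 were measured, with Tnni2 and Atp2a1 lower and Tnnt3, well above background on 5 arrays, higher. The defining myosin Myh4 and the light chain Mylpf were well above background on 0 arrays. The part of either cell type in the Acta1 and Actc1 values was not tested.

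Acta2, the alpha-actin of vascular smooth muscle, pericytes and myofibroblasts, did not pass the test. Scaled log2 signals were 4.99, 3.39 and 4.08 in controls and 3.29, 3.59 and 3.25 in icKO. The lowest control lay inside the icKO range, and the controls spanned far more than the icKO arrays did. The means were 4.15 ± 0.80 and 3.38 ± 0.19 (SD, n = 3 each), a difference of -0.77 ± 0.38 (SE, adjusted p = 0.145) with a 95% interval from -1.70 to 0.15, which includes 0. This probe was printed as 10 spots on each array, and their SD on the log2 scale was 0.02 to 0.09 within an array. Unscaled spots ran from 5875 to 6132 on the control 1 array and from 2323 to 2566 on the control 2 array. Without control 2 the difference was -1.15 and passed (adjusted p = 0.0310), and without control 1 it was -0.36. Control 2 was the lowest control for 5 of the 6 actin genes and control 1 the highest for 5 of 6, Actg1 being the exception to each.

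Actg2, the gamma-actin of visceral smooth muscle, changed in the opposite direction to Acta1. Scaled log2 signals were -1.85, -3.23 and -2.07 in controls and -0.59, -0.52 and -1.02 in icKO. Every icKO array lay above every control. The mean rose from -2.39 ± 0.74 to -0.71 ± 0.27 (SD, n = 3 each), a difference of 1.68 ± 0.37 (SE, adjusted p = 0.0123), or 3.20-fold. Its 95% interval was 0.79 to 2.57. The transcript gave a dim spot, with unscaled signals of 52.3, 24.8 and 51.0 in controls and 208, 243 and 144 in icKO. All 6 arrays had it well above background, but on control 2 it was close to the lowest signal that was, 21.1. With normexp background correction the difference was 0.80 and still passed (adjusted p = 0.00557).

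Markers of smooth muscle did not move as a set with either gene. Of 8 listed, 7 were measured: Tagln, at 1.46, and Cald1, at 0.79, were higher, while Smtn, at -0.87, and Synm, at -0.60, were lower. With spike-in scaling 3 were higher and 0 lower, and Synm also did not pass with median scaling. Myh11, the defining smooth muscle myosin, differed by 0.41 (adjusted p = 0.178), and Cnn1, an actin-binding calponin, by -0.01. The summed scaled signal was 69.0 to 88.8 in controls and 53.9 to 69.5 in icKO, so the groups overlapped. In controls that sum mostly follows Smtn, at 5.79 to 6.23, with Tagln next at 2.72 to 3.30. It does not describe the markers as a set. Pericyte markers were lower for 5 of 9 and higher for 1, with sums of 91.7 to 109.7 in controls and 64.6 to 73.4 in icKO, and median and spike-in scaling each left 3 lower. Markers of activated fibroblasts, a type that can make smooth muscle actins, were higher for 4 of 5 measured, including Postn and Cthrc1. Fap, at -0.22, did not pass. Cthrc1 was well above background on 3 arrays only, with controls at -5.64, -5.60 and -5.98. It thus passed the filter only through the icKO group, where it is high. The sum of these markers was 4.64 to 5.72 in controls and 89.5 to 149 in icKO, where Comp made up most of it. The part of these cell types in the values of Acta2 and Actg2 was not tested.

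Actb and Actg1 encode the cytoplasmic actins that every cell makes and that are often used as reference genes. Actb signals were 8.13, 7.60 and 8.07 in controls and 8.31, 8.47 and 8.42 in icKO. All icKO values were above all controls, by a margin smaller than the control range. The means were 7.93 ± 0.29 and 8.40 ± 0.08 (SD, n = 3 each), and the difference of 0.47 ± 0.16 (SE) just missed the threshold (adjusted p = 0.0538, 95% interval 0.08 to 0.85). It passed under 12 of the other settings tried, some chosen after seeing the data, with differences from 0.47 to 1.06. Leaving out any single array it did not pass (limma adjusted p = 0.0509 to 0.131). The other settings in which it did not pass include the replicate number as a block and no filter on dim probes. Unscaled Actb signals were 52979, 45056 and 57670 in controls and 99073, 123588 and 99633 in icKO.

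Actg1 had the tightest controls of the family. Its brightest probe gave 7.08, 7.14 and 7.09 in controls and 7.61, 7.68 and 7.49 in icKO. The means were 7.11 ± 0.03 and 7.59 ± 0.09 (SD, n = 3 each), and the difference of 0.48 ± 0.09 (SE, adjusted p = 0.00782) corresponds to 1.40-fold. The icKO arrays lay clear of the controls by several times the control spread. The other 4 Actg1 probes were tested in a fit of all 26152 kept probes, of which 11595 passed. In that fit 4 of the 5 Actg1 probes were higher, with differences of 0.48 ± 0.09, 0.48 ± 0.09, 0.33 ± 0.11 and 0.50 ± 0.11 (SE). The fifth and dimmest read 2.19, 2.35 and 2.18 in controls and 2.37, 2.32 and 2.48 in icKO. Its groups overlapped, and its difference of 0.15 ± 0.10 (SE) did not pass (adjusted p = 0.262). The probes measure the same RNA samples and are not replicates.

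**Figure D3:**
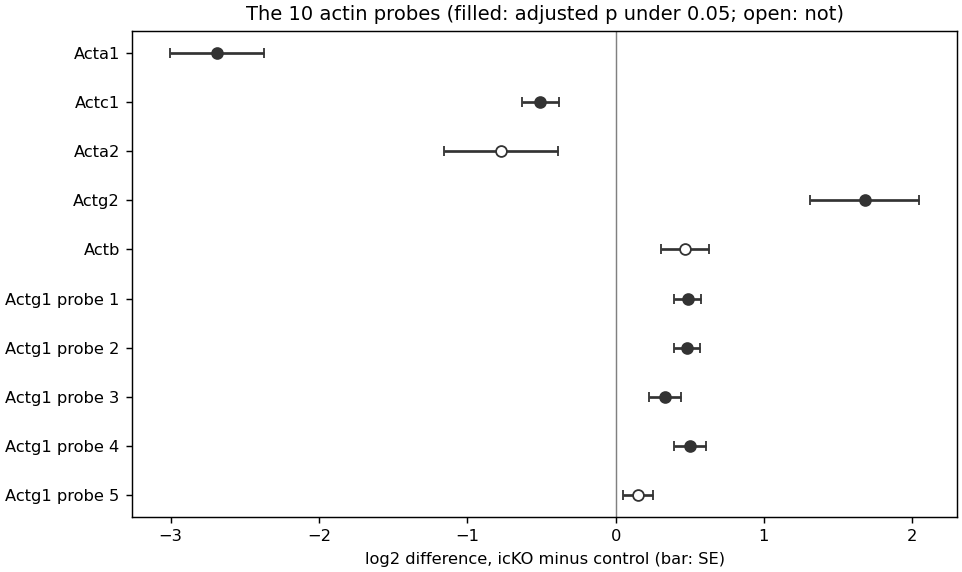
Log2 difference, icKO minus control, with its SE (x axis) for each of the 10 actin probes (y axis), from the fit of all kept probes. Filled points passed and open points did not. Of the 5 Actg1 probes, numbered from brightest to dimmest, 4 lie between 0.33 and 0.50 and the dimmest at 0.15.

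Fibroblast markers, cells rich in cytoplasmic actin, were higher for 7 of 8, among them Col1a1 and Dcn. Their summed scaled signal, mostly from Dcn, was 253 to 417 in controls and 673 to 857 in icKO. Macrophage markers were higher for 4 of 5 measured, with sums, mostly from Csf1r, of 26.4 to 36.1 in controls and 58.5 to 77.0 in icKO. Endothelial markers were lower for 3 of 6 and higher for 0, with sums of 28.9 to 35.7 in controls and 21.9 to 26.0 in icKO, but 0 of 6 passed with median or spike-in scaling. Atrial markers were measured for 2 of 5: Myl4 was higher, Nppa did not pass, and Bmp10 was well above background on 0 arrays. The part of these cells in the values of Actb and Actg1 was not tested.

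The actin genes were then compared with each other within each array, a difference that does not change when 1 constant is subtracted from an array, though it can change with quantile normalization or background correction. For each of the 15 pairs, the log2 ratio of one gene to the other was set between groups with an exact two-sided permutation test, for which 3 against 3 arrays cannot give a p below 0.1. No pair passed the threshold after adjustment. In the ratio of Acta1 to each of the other 5 genes the groups did not overlap. Relative to Actc1, Acta1 was lower by a log2 difference of -2.18 ± 0.34 (SE, exact permutation p = 0.1, adjusted p over the 15 pairs = 0.115). Relative to Actb it was lower by -3.16 ± 0.32 and relative to Actg2 by -4.37 ± 0.52, with the same p-values. With quantile normalization, Acta1 stood at -2.55 and Actc1 at 0.13, so Acta1 was the lower of the 2 there too.

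Actc1 in turn differed from both cytoplasmic actins, by -0.98 ± 0.10 (SE) relative to Actb and -0.99 ± 0.15 relative to Actg1, again without overlap and with the smallest p that the test allows. Acta2 stood at -1.24 ± 0.33 relative to Actb and at -2.45 ± 0.23 relative to Actg2. Actg2 was thus the smooth muscle actin on the high side of both cytoplasmic actins, and Acta2 the one on the low side, without overlap of the groups. In 13 of the 15 pairs the groups did not overlap. The exceptions were Actb against Actg1, at -0.02 ± 0.20 (SE, exact permutation p = 0.9), and Actc1 against Acta2, at 0.27 ± 0.38 (SE, exact permutation p = 0.7). Pairs that share a gene are not independent. Among single features the groups did not overlap for 59.0%, and the share over pairs of other features was not counted. With normexp background correction the difference of Actg2 relative to Actb went from 1.21 to 0.15 and that relative to Actg1 from 1.19 to 0.21. That of Actc1 relative to Actg2 went from -2.19 to -1.13, and that of Acta2 from -2.45 to -1.46.

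The icKO arrays were brighter as a whole, and the actin genes were therefore followed under other scalings. On control arrays the 75th percentile lay at 189.1, 232.5 and 215.0 units of signal, and on icKO arrays at 311.9, 347.5 and 291.8. The median feature differed by -0.14 on the 75th percentile scale, 0.05 once arrays were scaled to their median and 0.30 once scaled to the spike-in probes. Acta1 stayed lower in every setting tried, from -3.16 scaled to Actb to -2.10 scaled to Gapdh. Actg2 stayed higher in every setting, from 0.80 with normexp to 2.27 scaled to Gapdh. The common reference gene Gapdh, a glycolytic enzyme, was itself lower at -0.59 ± 0.11 (SE, adjusted p = 0.00661), though at -0.05 with quantile normalization (adjusted p = 0.664). Scaled to Actb the Actg1 difference was 0.02 (adjusted p = 0.952). Of the 6 genes, Actc1 was the one whose sign turned.

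**Figure D4:**
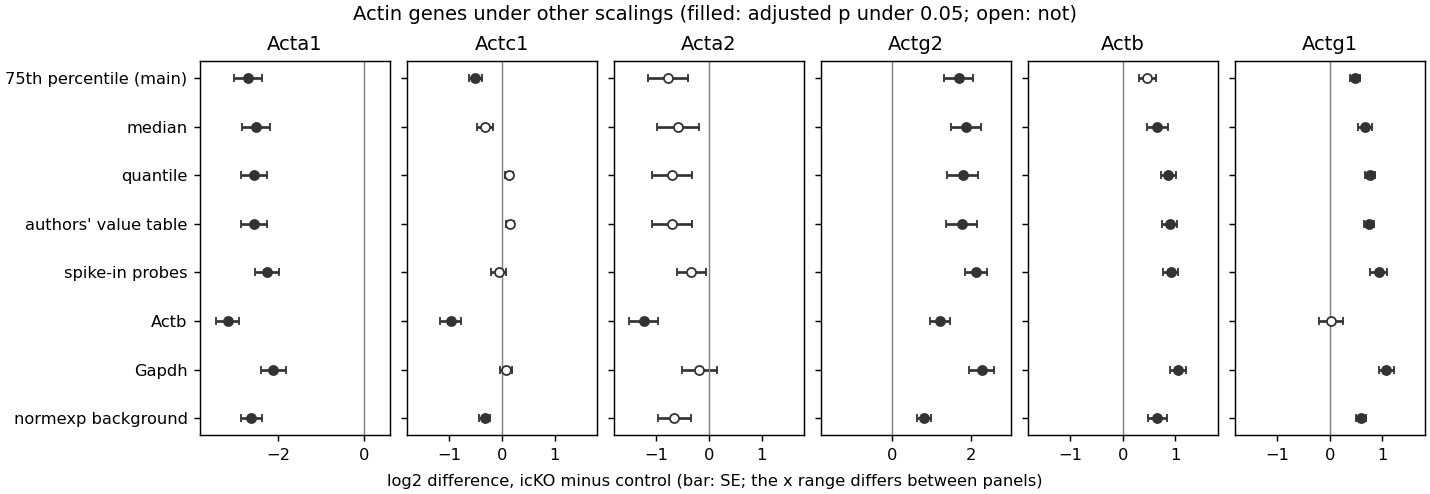
Log2 difference, icKO minus control, with its SE (x axis, range differing between panels) for each actin gene under 8 ways of scaling or background correction (y axis). Filled points passed and open points did not. Acta1 lies below 0 and Actg2 above 0 throughout, and Actc1 runs from -0.98 scaled to Actb to 0.15 in the authors' value table.

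All 6 arrays lay on 1 slide. Slide row 1 held 2 controls and 1 icKO array, and row 2 held 1 control and 2 icKO arrays. Column 2 held 1 of each. Column 1 held only controls and column 3 only icKO arrays, so slide column and group cannot be told apart on those arrays. Within row 1 the differences were -3.16 for Acta1, -0.66 for Actc1, -0.94 for Acta2, 1.45 for Actg2, 0.38 for Actb and 0.59 for Actg1. Within row 2 they were -2.14, -0.27, -0.12, 2.43, 0.76 and 0.41 in the same order. Every gene kept its sign in both rows. The Tead1 probe read 4.01, 3.79 and 3.96 in controls and 3.66, 3.44 and 3.46 in icKO, a difference of -0.40 ± 0.11 (SE, adjusted p = 0.0300) that was 0.04 with spike-in scaling (adjusted p = 0.837). Where it lies relative to the deleted part is not known here, so it does not check the labels.

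Genes with the most similar pattern were sought among 12572 named genes by the root mean square difference over the 6 arrays, after each gene was centred on its control mean. Nearest to Acta1 were Sh2d4a at 0.191, Acsl6 at 0.220 and Lingo3 at 0.301 log2 units, whose own differences were -2.70, -2.68 and -2.80. Nearest to Actc1 were Ldlrad3 at 0.0101, Poc1a at 0.0288 and Spint2 at 0.0379. Nearest to Actg2 were Lilr4b at 0.133, Camkk1 at 0.138 and Cd33 at 0.212, and nearest to Actg1 were Cited2 at 0.0205, Inpp5f at 0.0396 and Tshz2 at 0.0442. The distances were larger for the genes with larger differences, Acta1 and Actg2. This is a ranking over 6 arrays with no test.

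The genes that act on actin were divided into 7 lists, of which 116 genes were measured. Of these 38 were higher, 24 were lower and 54 did not pass, so 53.4% passed, against 48.2% of all named genes and 44.8% of all features. Median scaling gave 44 higher and 10 lower, quantile normalization 46 higher and 20 lower, and spike-in scaling 62 higher and 7 lower. The median difference was -0.07 over named genes and -0.14 over all features. Each list count below stands beside 16.0% higher and 28.7% lower over all features.

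Among SRF coactivators and partners, the factors that act with SRF in muscle, 1 of 10 measured was higher and 3 were lower. These counts are near the shares over all features. The median was -0.25, or 0.19 with spike-in scaling. Srf itself differed by -0.10 (adjusted p = 0.378), and its coactivators Myocd, Mrtfa and Mrtfb, at -0.29, 0.21 and 0.24, did not pass. Mrtfb did pass with median scaling (0.43), spike-in scaling (0.68) and normexp (0.33), but not with quantile normalization (0.31). Mrtfa passed with spike-in scaling (0.65). Abra, a muscle protein that binds actin and promotes SRF activity, was the higher one. It read 1.55, 0.81 and 1.44 in controls and 3.29, 3.61 and 3.19 in icKO, a difference of 2.10 ± 0.22 (SE, adjusted p = 0.00103) without overlap. Hopx, a homeodomain protein that restrains SRF, was lower by -2.28 ± 0.17 (SE, adjusted p = 0.000358) and Fhl2, a LIM protein of the heart, by -0.96 ± 0.12 (SE, adjusted p = 0.00168). The third lower gene was Mef2c, a muscle transcription factor, at -0.72, which did not pass with spike-in scaling.

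Proteins that bind monomers or sever filaments were higher for 10 of 24 and lower for 3, with a median of 0.31. Wdr1, a cofactor of cofilin, was higher by 1.03 ± 0.13 (SE, adjusted p = 0.00173), and Scin, a gelsolin relative, by 1.70 ± 0.22 (SE, adjusted p = 0.00200). Coro6, a coronin, was lower at -0.83 and Ssh2, a cofilin phosphatase, at -0.42, but neither passed with spike-in scaling. Nucleators and elongation factors were higher for 13 of 31 and lower for 5, with a median of 0.18. Enah, a barbed-end elongation factor, was higher by 1.87 ± 0.17 (SE, adjusted p = 0.000603), and Cttn, the branch-stabilising protein cortactin, by 0.79 ± 0.09 (SE, adjusted p = 0.00136). The other probe of each gave a smaller difference that also passed, 1.38 for Enah and 0.40 for Cttn. Lmod3, a thin filament nucleator of striated muscle, was lower by -2.10 ± 0.25 (SE, adjusted p = 0.00157), while its relative Lmod2 was higher by 0.66. Cobl, an actin nucleator, was lower at -0.95 and did not pass with spike-in scaling.

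Proteins of filament ends and length had the highest list median, 0.48, with 7 of 12 higher and 1 lower. Neb, the giant thin filament protein nebulin, read -1.45, -1.06 and -1.13 in controls and 1.71, 1.21 and 1.97 in icKO, a difference of 2.84 ± 0.22 (SE, adjusted p = 0.000369), or 7.17-fold. Nrap, a nebulin-related anchoring protein, was higher by 0.85 ± 0.13 (SE, adjusted p = 0.00390). Tmod4, a tropomodulin that caps pointed ends in striated muscle, was the lower one, at 3.45, 3.48 and 3.51 in controls and 1.23, 1.38 and 1.34 in icKO. Its difference was -2.16 ± 0.09 (SE, adjusted p = 9.37e-05), while Tmod2 and Tmod3 were higher and Tmod1, at 0.30, did not pass. The higher genes also include Capg, at 1.13, an actin-capping protein of macrophages.

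Crosslinkers were higher for 6 of 15 measured and lower for 2, with a median of 0.29. Actn1, the non-muscle alpha-actinin, was higher by 1.11 ± 0.13 (SE, adjusted p = 0.00128), and Dbn1, the filament side-binding protein drebrin, by 1.85 ± 0.23 (SE, adjusted p = 0.00168). Actn2, the alpha-actinin of the sarcomere's Z-disc, differed by 0.10 (adjusted p = 0.488). Synpo2, an actin-bundling protein of the Z-disc, was lower by -1.78 ± 0.13 (SE, adjusted p = 0.000334). In the fit of all kept probes its other probes gave -1.30, which passed, and -0.43, which did not (adjusted p = 0.0581). Its relative Synpo2l was lower at -0.41 but did not pass with median or spike-in scaling. Folding and modification genes were higher for 0 of 16 and lower for 7, with a median of -0.30. Median scaling left 1 of them lower, and with spike-in scaling 3 were higher, 1 was lower and the median was 0.15. Pfdn6, a prefoldin subunit, was lower by -0.91 ± 0.09 (SE, adjusted p = 0.000843), and Cct7, a chaperonin subunit, by -0.49 ± 0.09 (SE, adjusted p = 0.00610), which did not pass with median scaling. Actin-related proteins were higher for 1 of 8 measured and lower for 3, with a median of -0.08, or 0.11 with median scaling and 0.36 with spike-ins. Actr3b, a relative of Actr3, was lower by -1.62 ± 0.12 (SE, adjusted p = 0.000351). Actl6a, a chromatin remodeller subunit at -0.46, did not pass with median or spike-in scaling. Actr1a, the dynactin filament subunit at 0.33, passed with median, quantile and spike-in scaling but lost its call in some other settings.

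**Figure D5:**
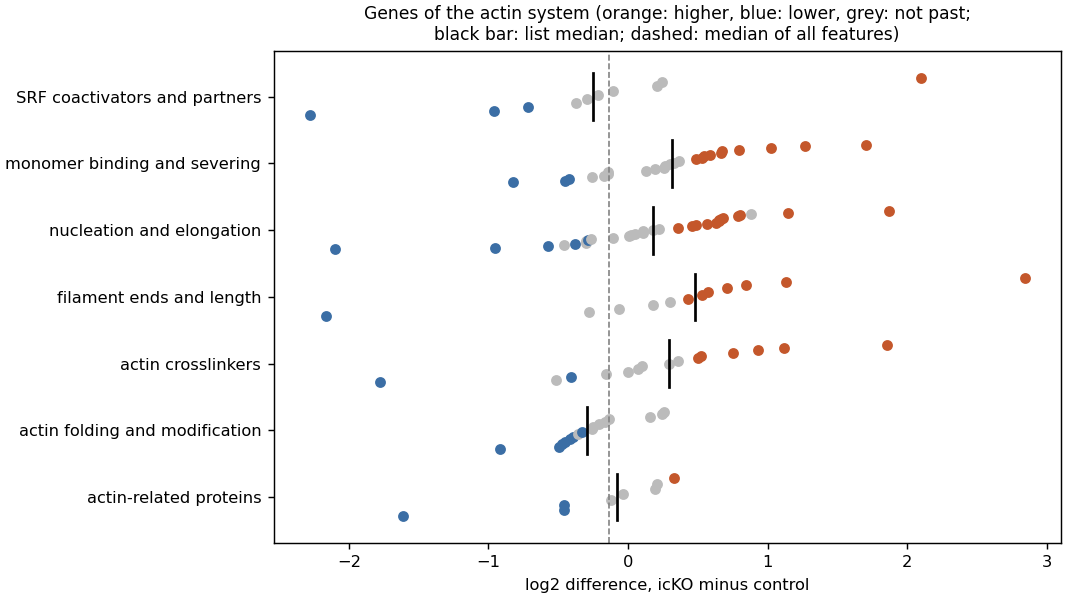
Log2 difference, icKO minus control (x axis), of the 116 measured genes of the actin system in 7 lists (y axis). Points are genes, orange where higher, blue where lower and grey where not past the threshold, with a bar at each list's median and a dashed line at the median of all features, -0.14. The list of filament ends and length has the highest median, 0.48, and holds Neb at 2.84 and Tmod4 at -2.16.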

How the data were processed

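The deposited scanner files hold spot intensity, which the authors read with Feature Extraction 11.0.1.1 (array design 028005) and which was background-subtracted array by array, per the file headers. Version 9.1 stands in the submitters' processing notes. The authors' deposited value table also holds intensity, scaled by a method the labels do not name.

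Log2 processed signals were scaled to each array's 75th percentile over the spots other than controls among its 62976 spots. Outlier spots were left out, 4 of 114 for actin. Spots of a probe were averaged and probes kept where well above background on all 3 arrays of a group, 26152 of 55681. Between 47.7% and 50.9% of probes were well above background. Each gene stood for its brightest kept probe, named by RefSeq accession through a GRCm38.p6 gene table, and unnamed probes were tested singly. limma 3.58.1 (R 4.3.3) compared groups with lmFit and eBayes, and the same fit was also run on simulated data.

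The members and lists were chosen with earlier results of these data known. Named genes were the 6 actin genes, up to 2 higher and 2 lower genes with the smallest adjusted p from each list, the 3 nearest patterns of each actin gene that passed, and, chosen after their values were seen, list or marker genes given for contrast. Normexp was planned on mean signals and run on median signals, the ones read here. The number of arrays limits the precision. Same-numbered samples did not deviate together (r = -0.05, -0.13 and 0.00), so numbers were not taken as pairs.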

Additional observations from a re-analysis of the deposited data

How the results depend on the processing

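Without a filter on dim probes 6123 features passed against 9974; every other setting gave a count within 1.5 times. Of the calls 35.8% were higher, against 58.5% with median and 81.1% with spike-in scaling. Between 3 and 5 actin genes passed in each setting, and Acta1 and Actg2 passed in each. Leaving out 1 array gave -3.01 to -2.50 for Acta1, 1.26 to 1.95 for Actg2, -0.61 to -0.42 for Actc1, 0.30 to 0.57 for Actb, 0.44 to 0.54 for Actg1 and -1.15 to -0.36 for Acta2. Actc1 lost its call without control 3 (-0.49, adjusted p = 0.0572), icKO 2 (-0.48, 0.0536) or icKO 3 (-0.51, 0.0512), with median (-0.319) or spike-in scaling (-0.0658), and without the filter (-0.51, 0.0791). Its sign turned with quantile normalization (0.13), the authors' value table (0.15) and Gapdh scaling (0.0801). The sign with quantile normalization is fixed by the probe's ranks on the arrays. Actb passed with normexp (0.65), median (0.66), quantile (0.87), spike-in (0.91) and Gapdh scaling (1.06), the authors' value table (0.89), a filter on all 6 arrays (0.47), trend and robust eBayes (0.47), array weights (0.47) and the slide row as a block (0.57), and with 2 settings chosen after seeing the data, the percentile over probes each counted once (0.51) or over spots without an outlier mark (0.47). Scaled to Actb, Acta2 passed at -1.24 and Actg1 did not at 0.0166. The list counts moved from 38 higher to 62 with spike-in scaling, and from 24 lower to 10 with median and 7 with spike-in scaling. Pairs without overlap numbered 11 to 14. For all these the cause was not tested. With the replicate number as a block 7881 features and the same 4 actin genes passed, Actc1 at an adjusted p of 0.0350. No slide block was run, as there was 1 slide. Low signal over background limits Actg2.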

Other observations

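Some groups of genes within the lists were picked after their values were seen. Of 9 measured genes of the Arp2/3 complex, which starts branched filaments, 5 were higher, 2 lower and 2 did not pass. Arpc3, at 0.68, Arpc5, at 0.65, Arpc1b, at 0.65, Arpc4, at 0.49, and Actr3, at 0.36, were the higher ones. Arpc1a, at -0.29, and Arpc5l, at -0.57, were lower, but neither passed with median scaling, quantile normalization or spike-in scaling. Arpc1a stood at 0.15 with spike-in scaling. Over all features 16.0% were higher and 28.7% lower in the main setting.

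Of 8 measured genes of the CCT chaperonin, which folds new actin and tubulin, 6 were lower and 0 higher. The lower ones ran from -0.33 for Cct8 to -0.49 for Cct7. Over all features 28.7% were lower and 16.0% higher. Cct2, at -0.17, and Cct6a, at -0.14, did not pass. None of the 6 passed with median or spike-in scaling.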
